A study of Sus scrofa with 8 samples.

Results

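The antiviral genes described here, 10 in number and all induced by interferons, were followed in the blood of sows at day 14 after insemination: the RNA sensors IFIH1, DDX58 and DHX58, the effectors MX2, RSAD2, BST2, OAS2 and OASL, the negative regulator USP18 and the chemokine CXCL10. They were fixed by name, and every probe whose RefSeq transcript accession belongs to these pig symbols was taken, which gave 19 probes for the 10 genes among 1817 named genes and 26480 probes measured. Several probes were present for 6 genes (5 for OAS2, and 2 each for RSAD2, USP18, CXCL10, IFIH1 and DDX58), and the other 4 genes had 1.

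Whole blood was taken from 8 sows of the fifth parity, 4 of them pregnant and 4 non-pregnant, and the RNA of each sow was hybridised to 1 single-colour porcine array. All were inseminated before sampling, so the non-pregnant sows are inseminated animals without a pregnancy. By the submitters' account the sows comprised 3 pairs of half-sibs and 1 pair without kinship, and the labels do not say which sows form a pair. Each of the 2 slides carried 2 arrays per group: slide 1 held the sows numbered 1 and 3, slide 2 those numbered 2 and 4.

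Interferons are secreted when cells detect viral nucleic acid, and they act through surface receptors to switch on a broad set of genes. The sensors of this group bind viral RNA in the cytoplasm and start interferon production, the effectors block steps of viral replication or release, and USP18 dampens the response. The pig conceptus itself secretes interferon gamma and interferon delta around the time it attaches to the uterus, and interferon-stimulated genes of blood cells are studied as markers of early pregnancy in ruminants.

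Values below are log2 signals relative to the 75th percentile of the same array, so a value of 0 equals that percentile. Levels of different probes are not compared. In blood, a lower value can mean fewer cells of a type or less RNA per cell, which cannot be told apart. The share of probes detected well above background ran from 61.7% to 69.2% over the arrays. The signal at the 75th percentile ran from 142 in pregnant replicate 2 to 297. Non-pregnant replicate 4 was the next lowest, at 176, and these arrays also had the lowest shares, 61.7% and 62.6%. Markers of monocytes (10 of 14 measured), T cells (9 of 13), cytotoxic cells (6 of 11), neutrophils (6 of 14) and platelets (8 of 10) were measured, CD14, LYZ, CD3E and PPBP among them, while of 10 erythroid markers only KLF1 was, so that the red cell content of these samples was not analysed here.

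All 19 probes were well above background on all 8 arrays, as were 54.4% of all probes. None of the 19 passed the test between pregnant and non-pregnant sows (0 probes at a limma adjusted p under 0.05, adjusted p = 1.00 for each), and the share called over all probes was likewise 0%. At an unadjusted p under 0.05 there was 1 probe, the second of USP18, which was higher in pregnant sows, where 1.52% of all probes were higher at that level. The log2 fold change (pregnant minus non-pregnant) was above 0 for 16 of the 19 probes and below 0 for 3, with a median of 0.16, where 43.3% of all probes were above 0 with a median of -0.044. By gene, at the brightest probe, 8 were above 0 and 2 (MX2 and RSAD2) below. Probes of a gene share its transcript and are not separate evidence. Of the cell markers 0 passed the test as well, and their log2 fold changes were above 0 for all 10 monocyte markers (median 0.36) and below 0 for all 9 T cell (median -0.28) and all 6 cytotoxic and NK cell markers (median -0.43). Their part in the antiviral genes was not tested.

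**Figure D1:**
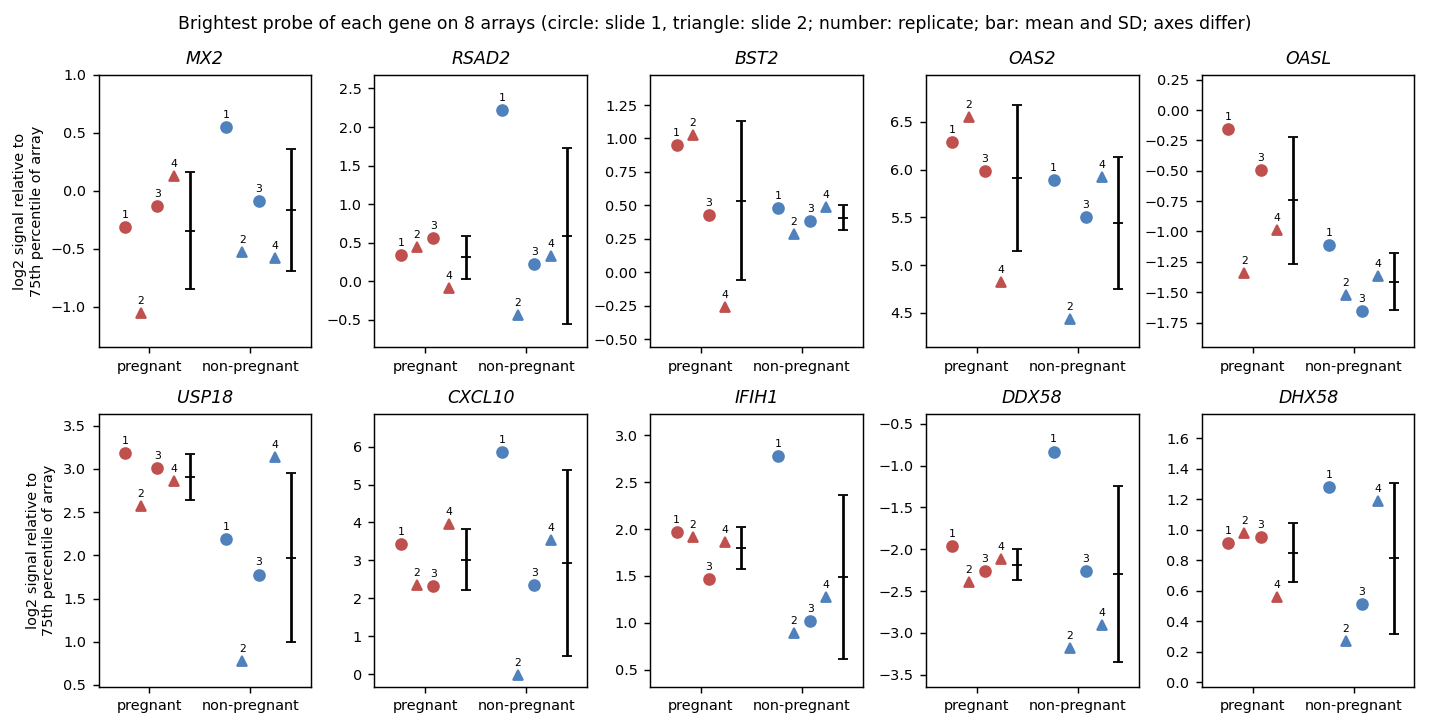
Log2 signal relative to the 75th percentile of each array for the brightest probe of each of the 10 genes, by group, with replicate numbers, circles for slide 1, triangles for slide 2 and bars for mean and SD (n = 4); the vertical axes differ between panels. For RSAD2, CXCL10, IFIH1, DDX58 and DHX58 the 4 non-pregnant sows span a wider range than the 4 pregnant sows, with replicate 1 at the top and replicate 2 at the bottom.

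The sensors IFIH1 and DDX58 differed far more among the non-pregnant sows than between the groups. IFIH1, which binds long double-stranded RNA, stood at 1.96, 1.91, 1.47 and 1.86 in pregnant replicates 1 to 4 and at 2.78, 0.89, 1.02 and 1.28 in non-pregnant replicates 1 to 4. The highest and the lowest of the 8 values were thus both in non-pregnant sows, and the 4 pregnant values lay between them. Group means were 1.80 ± 0.22 and 1.49 ± 0.87 (SD, n = 4 each), a log2 fold change of 0.31 with a standard error of 0.41. Only non-pregnant replicate 1 made the groups overlap, and without that sow the log2 fold change was 0.74. At the dimmer IFIH1 probe the log2 fold change was 0.068, with non-pregnant replicate 1 again highest (0.36) and non-pregnant replicate 2 lowest (-1.25).

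DDX58, the gene of RIG-I, which recognises the ends of viral RNA, gave -1.96, -2.39, -2.26 and -2.12 in the pregnant sows. In the non-pregnant sows it gave -0.83, -3.18, -2.26 and -2.91, so that the pregnant values fell inside the non-pregnant range. The SD was 0.18 in pregnant and 1.05 in non-pregnant sows, and the span from lowest to highest was 1.34-fold against 5.08-fold. The log2 fold change was 0.11 with a standard error of 0.46, and 0.16 at the second probe. It depended on which non-pregnant sows were included, at 0.60 without replicate 1, -0.18 without replicate 2 and -0.093 without replicate 4.

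DHX58, whose product LGP2 lacks the signalling domains of the other sensors and modulates them, varied least of the 3. Its values were 0.91, 0.98, 0.95 and 0.56 in pregnant and 1.28, 0.27, 0.51 and 1.19 in non-pregnant sows. Pregnant replicates 1 to 3 lay close together and replicate 4 below them, whereas the non-pregnant sows formed a high pair (replicates 1 and 4) and a low pair (replicates 2 and 3). The log2 fold change was 0.038 (95% interval of the fold 0.654 to 1.61), and it became 0.19 without non-pregnant replicate 1. It turned below 0 when a non-pregnant sow was left out (-0.14 for replicate 2, -0.062 for replicate 3) and when pregnant replicate 2 was (-0.0048).

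Among the effectors, MX2 and RSAD2 were the genes with lower means in pregnant sows. MX2, a dynamin-like GTPase that traps incoming viral particles, stood at -0.32, -1.05, -0.14 and 0.12 in pregnant sows and 0.55, -0.53, -0.092 and -0.58 in non-pregnant sows. The lowest value belonged to pregnant replicate 2 and the highest to non-pregnant replicate 1. Their difference of -0.18 (log2 fold change, standard error 0.35) became 0.054 when pregnant replicate 2 was left out and 0.057 when non-pregnant replicate 1 was.

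RSAD2, the gene of viperin, which makes a chain-terminating nucleotide that stops viral polymerases, was nearly level in pregnant sows, at 0.34, 0.44, 0.56 and -0.093. Non-pregnant replicate 1 stood at 2.22, while non-pregnant replicates 2, 3 and 4 were at -0.44, 0.22 and 0.33. Thus 7 arrays lay between -0.44 and 0.56 and a single sow stood above them, at 3.70 times the median of the 8 arrays. The second probe showed the same arrangement, with -0.59 in non-pregnant replicate 1 and -2.81 to -1.97 on the other 7 arrays, and the probes correlated at r = 0.970 over 8 arrays. Group differences were -0.27 (log2 fold change) at the first probe and -0.48 at the second, and without non-pregnant replicate 1 it was 0.27 and -0.023.

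BST2, the gene of tetherin, which holds budding virus at the cell surface, showed the opposite arrangement of spread. Its 4 non-pregnant values were almost equal, at 0.48, 0.28, 0.38 and 0.49, and its pregnant values were 0.95, 1.03, 0.43 and -0.26. Pregnant replicates 1 and 2 were above every non-pregnant value and pregnant replicate 4 below every one. The SD was 0.60 in pregnant and 0.096 in non-pregnant sows, and the log2 fold change was 0.13 with a standard error of 0.31. Without pregnant replicate 4 it was 0.39, and it turned to -0.037 when pregnant replicate 2 was left out and to -0.011 when pregnant replicate 1 was.

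OAS2 makes oligoadenylates, a second messenger of the antiviral response. At its brightest probe the pregnant sows were at 6.29, 6.55, 5.99 and 4.82 and the non-pregnant sows at 5.89, 4.44, 5.51 and 5.92. A single sow of each group was low, pregnant replicate 4 and non-pregnant replicate 2, and the other 3 pregnant sows lay above all non-pregnant sows. The fold was 1.39 (95% interval 0.691 to 2.79). Pregnant replicate 4 and non-pregnant replicate 2 held the lowest pair of values at all 5 OAS2 probes, whose log2 fold changes ran from 0.067 to 0.47 and whose pairwise r over 8 arrays ran from 0.672 to 0.959. Without pregnant replicate 4 the log2 fold change at the brightest probe rose from 0.47 to 0.84, and without non-pregnant replicate 2 it was 0.14.

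OASL, a relative of OAS2 with ubiquitin-like domains, had 1 probe. Pregnant values were -0.16, -1.34, -0.49 and -0.99, and non-pregnant values were -1.11, -1.52, -1.65 and -1.37. Of the pregnant sows 3 lay above all 4 non-pregnant sows, and pregnant replicate 2 fell among them. The fold was 1.59 (95% interval 0.995 to 2.54, limma unadjusted p = 0.0522, adjusted p = 1.00). With each array left out in turn the log2 fold change of 0.67 stayed above 0, with a lowest value of 0.47 (pregnant replicate 1 left out) and a highest of 0.87 (pregnant replicate 2 left out). After normexp background correction, whose added offset of 50 lowers folds most at dim probes, it was 0.21.

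USP18, the protease that removes ISG15 from proteins and holds back the type I interferon receptor, was the gene whose probes came nearest to parting the groups. At the brighter probe the pregnant sows were at 3.19, 2.57, 3.01 and 2.85 and the non-pregnant sows at 2.19, 0.78, 1.78 and 3.14. Non-pregnant replicate 4 lay among the pregnant sows and the other 3 below them. The dimmer probe gave -2.60, -1.96, -2.32 and -2.34 in pregnant and -3.13, -3.17, -3.63 and -2.98 in non-pregnant sows.

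At this dimmer probe every pregnant value was above every non-pregnant value, the only 1 of the 19 probes where the groups did not overlap with pregnant sows higher, where 0.895% of all probes showed this. None of the 19 (0 probes) had the reverse separation, which 0.687% of all probes showed. Folds were 1.91 (95% interval 0.958 to 3.80) at the brighter and 1.90 (1.28 to 2.81) at the dimmer probe, with limma unadjusted p of 0.0631 and 0.00460 and adjusted p = 1.00 for each. At the dimmer probe the log2 fold change was 0.92 on each slide, and 0.79 to 1.02 with an array left out. After normexp background correction, whose added offset of 50 lowers folds most at dim probes, it was 0.13. At the brighter probe the log2 fold change was 0.53 when non-pregnant replicate 2 was left out and 1.32 when non-pregnant replicate 4 was. It was 0.71 there after normexp. The probes agreed on the group difference but only partly on the sows, with r = 0.574 over 8 arrays, since non-pregnant replicate 4 was the second highest array at the brighter probe and lower than all pregnant arrays at the dimmer one. The lowest signal counted as well above background lay between -5.03 and -4.10 on the 8 arrays, below all values of the dimmer probe.

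CXCL10, a chemokine that draws activated T cells and NK cells and that interferon gamma induces as well, had the widest range of the group. Pregnant sows stood at 3.43, 2.35, 2.33 and 3.97 and non-pregnant sows at 5.85, -0.036, 2.35 and 3.52. Non-pregnant replicate 1 was 7.74 times the median of the 8 arrays and non-pregnant replicate 2 was 0.131 times that median, so these sows of 1 group lay 59.0-fold apart. The other 6 arrays, from both groups, lay between 2.33 and 3.97. A range over the 8 arrays at least this wide was found in 0.495% of all probes. The second probe followed the first closely (Pearson r = 0.999 over 8 arrays), though arrays of similar value changed order, and gave 59.8-fold between the same sows.

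The means of CXCL10 were 3.02 ± 0.81 in pregnant and 2.92 ± 2.45 in non-pregnant sows (SD, n = 4 each). With a fold of 1.07 and a 95% interval of 0.218 to 5.26, a difference of several fold in either direction was not detectable with these arrays. Its log2 fold change of 0.097 was 1.07 without non-pregnant replicate 1. It turned to -0.89 without non-pregnant replicate 2, -0.22 without pregnant replicate 4, -0.092 without non-pregnant replicate 3 and -0.041 when pregnant replicate 1 was left out.

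**Figure D2:**
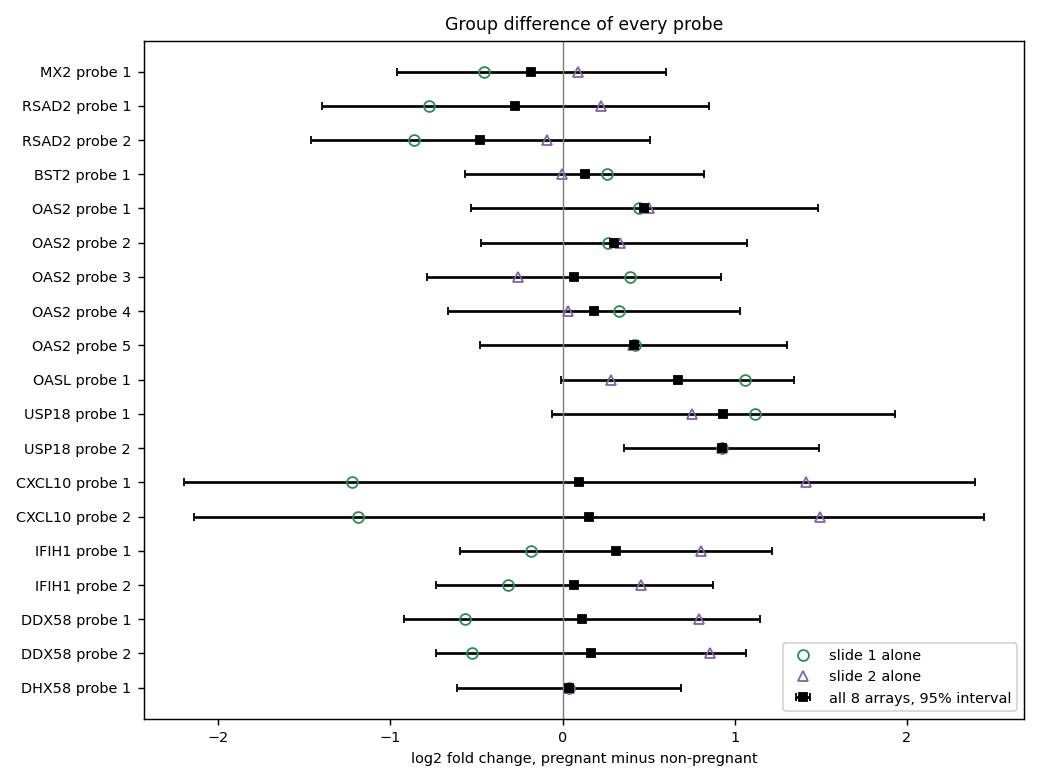
Log2 fold change (pregnant minus non-pregnant) of all 19 probes with 95% limma intervals (squares, 8 arrays), and the same difference within slide 1 (circles) and slide 2 (triangles), 2 arrays per group each. Intervals of 18 probes cross 0, and for CXCL10, IFIH1 and DDX58 the slides lie on opposite sides of 0.

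Slides were compared because each held both groups, and at the brightest probe of each gene the following values were found. CXCL10 had a log2 fold change of -1.22 within slide 1 and 1.41 within slide 2. DDX58 went from -0.57 to 0.79, IFIH1 from -0.18 to 0.80, RSAD2 from -0.77 to 0.23 and MX2 from -0.46 to 0.092. Non-pregnant replicate 1, the highest array for all 5 of these genes, was on slide 1. Non-pregnant replicate 2, the lowest for all of them but MX2, was on slide 2. OAS2 (0.44 and 0.50), USP18 (1.11 and 0.75), OASL (1.06 and 0.28) and DHX58 (0.036 and 0.040) kept their sign, and BST2 was at 0.26 and -0.0020. Other probes of a gene could differ: the third OAS2 probe turned from 0.39 to -0.26, and the second RSAD2 probe stayed below 0 (-0.86 and -0.092). Signs were opposite in 10 of the 19 probes and in 56.2% of all probes. The difference between slides itself, tested as an interaction in limma, passed in 0 of the 19 probes (smallest unadjusted p = 0.0948, adjusted p = 0.966) and in 0% of all probes. At an unadjusted p under 0.05 the interaction counted 0 of the 19 and 5.57% of all probes.

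Spread within a group was unlike that of most probes. The SD was larger among non-pregnant than pregnant sows for 12 of the 19 probes (7 of the 10 genes at the brightest probe), where 33.9% of all probes showed this, and at least 2 times larger for 10 of the 19, where 7.02% of all probes did. The 10 probes are the brighter one of USP18 and all those of RSAD2, CXCL10, IFIH1, DDX58 and DHX58. Without non-pregnant replicate 1 the counts were 9 and 5 (30.4% and 6.51% of all probes), and without non-pregnant replicate 2 they were 12 and 10 (36.1% and 8.60%). Leaving out pregnant replicate 2, the array with the weakest signal, gave 12 and 11, and the share of all probes then rose to 53.0% and 17.5%. No test was made of this difference in spread.

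**Figure D3:**
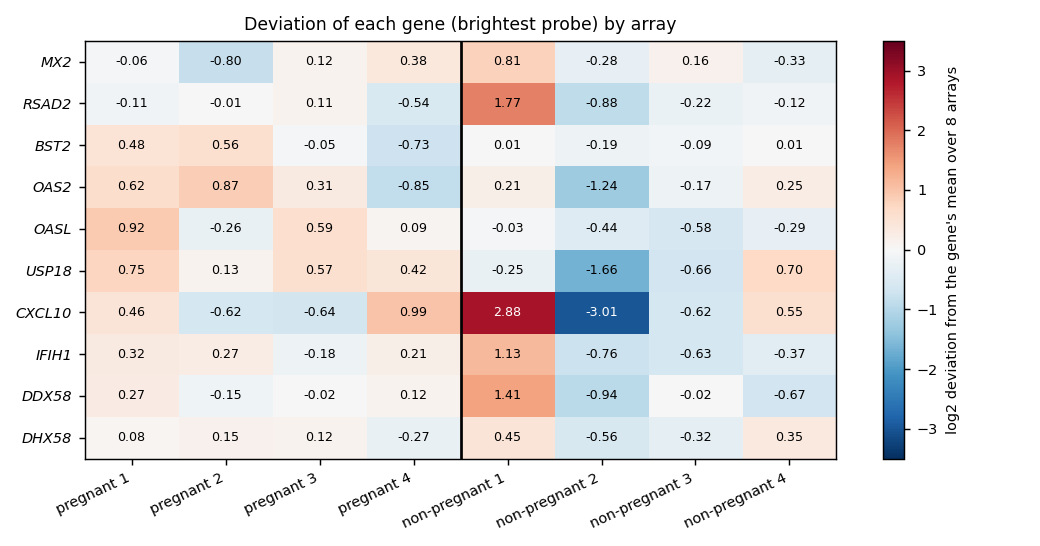
Deviation of each gene's brightest probe from its mean over the 8 arrays, on the log2 scale, by sow. The column of non-pregnant replicate 1 holds the highest value of 6 genes, up to 2.88 for CXCL10, and the column of non-pregnant replicate 2 holds the lowest value of 7 genes, down to -3.01.

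The plot of deviations by sow shows that the same sows were high or low for several genes. Non-pregnant replicate 1 was the highest array at 10 of the 19 probes, where it was highest at 18.4% of all probes: MX2, RSAD2, CXCL10, IFIH1, DDX58 and DHX58 at every probe they have. Non-pregnant replicate 2 was the lowest array at 11 of the 19, where it was lowest at 8.86% of all probes. Averaged over the 10 genes, the deviation was 0.84 for the first of these sows and -0.995 for the other, and between -0.31 and 0.37 in the other 6 sows, with the pregnant sows from -0.019 to 0.37.

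Signal and detection on the arrays of these sows lay inside the range of the other arrays. Their 75th percentiles were 231 (non-pregnant replicate 1) and 248 (replicate 2), and 65.7% and 68.4% of their probes were well above background. Non-pregnant replicate 2 had the most outlier spots of the 8 arrays, 85, with 36 to 51 on the other arrays of its slide and 6 to 10 on slide 1. Whether this bears on its low values was not tested. In the same order, the mean deviation of the measured monocyte markers was -0.22 and -0.086, that of neutrophil markers -0.65 and 0.20, that of T cell markers 0.28 and 0.16, that of cytotoxic and NK markers 0.43 and 0.57, that of platelet markers 0.67 and -0.084 and that of B cell markers 0.53 and 0.29. The summed linear signals of these lists, each relative to the 75th percentile, ran from 83.3 to 108 in pregnant and 58.8 to 86.5 in non-pregnant sows for monocytes, 47.8 to 66.9 and 64.1 to 75.7 for T cells, 62.5 to 117 and 85.4 to 179 for cytotoxic cells, 1352 to 3059 and 1617 to 2286 for platelets, and 12.7 to 16.8 and 11.9 to 24.3 for B cells. Neutrophil markers ran from 33.5 to 212 in pregnant and 91.1 to 493 in non-pregnant sows. The platelet sum rests mostly on ITGB3 (10.4 to 11.6 over the arrays) and the neutrophil sum on MMP9 (4.40 to 8.90). The cytotoxic sum rests mostly on CCL5 (5.37 to 7.08), so these sums do not measure cell content. Single markers of a list went both ways: among monocyte markers, picked after their values were seen, FCGR1A stood at -0.84 and -2.86 in these sows and CD163 at 1.11 and 3.11. Markers of plasmacytoid dendritic cells, a main source of type I interferon, were covered by 3 of 9 genes (TLR7, TLR9 and GZMB), with a mean deviation of 0.081 and -0.028 and summed signals of up to 10.8 in pregnant and 11.8 in non-pregnant sows. GZMB made up most of these sums. The part of cell composition in the antiviral genes was not tested.

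**Figure D4:**
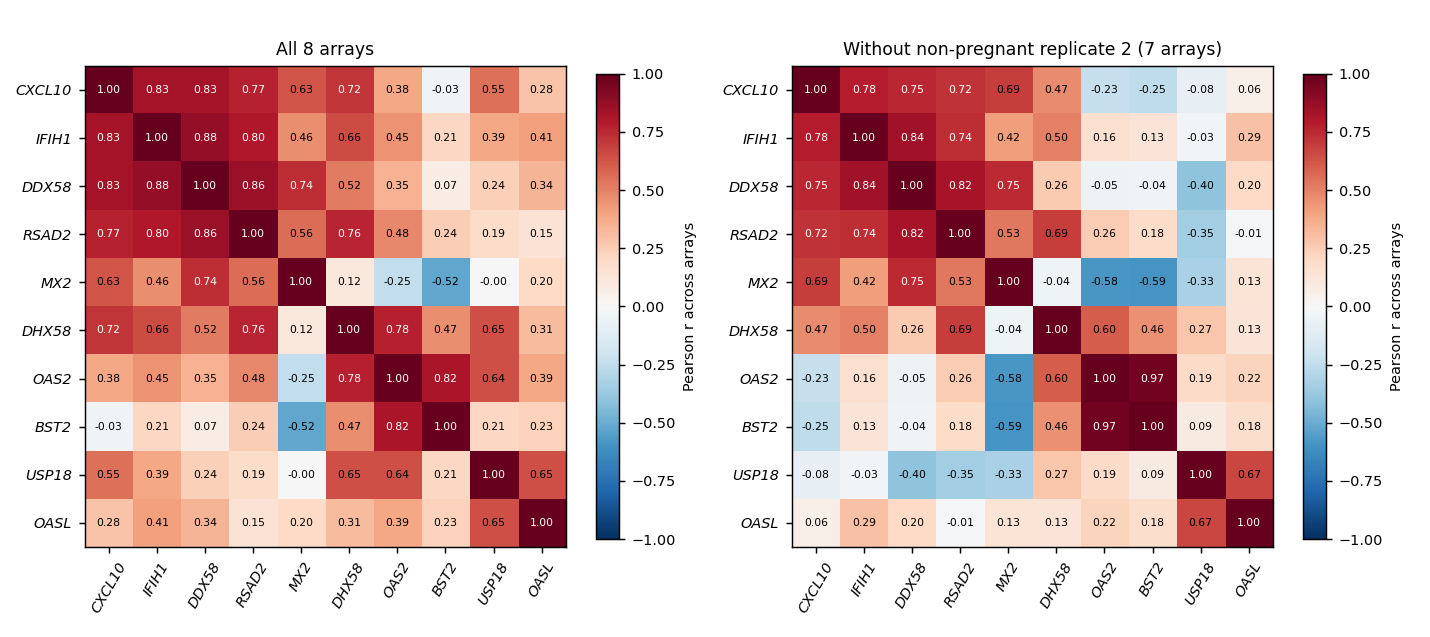
Pearson r across arrays between the brightest probes of the 10 genes, over all 8 arrays (left) and without non-pregnant replicate 2 (right). CXCL10, IFIH1, DDX58 and RSAD2 correlate with each other at 0.77 or higher on the left and 0.72 or higher on the right. BST2 and OAS2 pair with each other at 0.82 and 0.97. Among CXCL10, IFIH1, DDX58 and RSAD2, r without non-pregnant replicate 1 was 0.43 to 0.71 (not shown). Without non-pregnant replicates 1 and 2 it was -0.69 to 0.49 over 6 arrays (not shown).

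Co-variation across the 8 sows was computed for all 45 pairs of the 10 genes. The median r was 0.45, with 41 pairs above 0. Over all pairs of the 1817 named genes the median was 0.071 (quartiles -0.36 and 0.47), and 54.3% were above 0. It fell to 0.20 without non-pregnant replicate 2 and was 0.40 with each group's mean removed. Exact permutation tests over the pairings of 8 arrays gave an unadjusted p under 0.05 for 11 pairs and an adjusted p under 0.05, over the 45 pairs, for 0. These are the 11 pairs with r of 0.716 or higher, which 9.79% of all named gene pairs reached. These sows include half-sibs, so the arrays are not wholly independent.

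The sensors IFIH1 and DDX58 had the highest correlation of all pairs, at r = 0.880 (exact permutation p = 0.00558, adjusted p = 0.140) and Spearman's rho = 0.762 (exact permutation p = 0.0368). Without the arrays farthest from the IFIH1 median, non-pregnant replicates 1 and 2, r was 0.491 over the other 6 arrays, so that the height of r rests on those sows. DHX58 followed IFIH1 at r = 0.656 (exact permutation p = 0.0753, adjusted p = 0.244; rho = 0.643, exact permutation p = 0.0962) and DDX58 at r = 0.520 (exact permutation p = 0.185, adjusted p = 0.416; rho = 0.262, exact permutation p = 0.536). Without non-pregnant replicates 1 and 2 these were 0.12 and -0.608.

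CXCL10 and RSAD2 were related through the same sows. Their r was 0.773 (exact permutation p = 0.0477, adjusted p = 0.195) but their rho only 0.238 (exact permutation p = 0.582), and without non-pregnant replicates 1 and 2 r was -0.688. MX2 and RSAD2 had r = 0.561 (exact permutation p = 0.158, adjusted p = 0.414; rho = 0.143, exact permutation p = 0.752), and r was 0.123 without non-pregnant replicate 1 and pregnant replicate 2.

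Members of the group did not all follow the pattern of those sows. BST2 and MX2 went in opposite directions, with r = -0.523 (exact permutation p = 0.175, adjusted p = 0.414; rho = -0.548, exact permutation p = 0.171), and r was -0.526 without the arrays farthest from the MX2 median. BST2 and OAS2, which were both low in pregnant replicate 4, correlated at r = 0.815 (exact permutation p = 0.0135, adjusted p = 0.140) and rho = 0.905 (exact permutation p = 0.00456). That pair was singled out after its values were seen. Its r was 0.704 without the arrays farthest from the BST2 median, pregnant replicates 2 and 4, and 0.967 without non-pregnant replicate 2.

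RSAD2 and BST2 had r = 0.244 (exact permutation p = 0.489, adjusted p = 0.667) with rho = 0.619 (exact permutation p = 0.115), and r rose to 0.730 without non-pregnant replicates 1 and 2. OAS2 and OASL, of one family, correlated at r = 0.389 (exact permutation p = 0.340, adjusted p = 0.571; rho = 0.476, exact permutation p = 0.243), and at 0.409 without pregnant replicate 4 and non-pregnant replicate 2. USP18 and OASL, the genes with the largest folds, had r = 0.648 (exact permutation p = 0.0773, adjusted p = 0.244; rho = 0.714, exact permutation p = 0.0576) and 0.559 without pregnant replicates 1 and 3. With each group's mean removed, r of this pair was 0.403. Within a slide there are 4 arrays, too few for a correlation of a pair. The median r over the 45 pairs was 0.45 within slide 1 and 0.55 within slide 2, and is no firmer. Slide 1 held non-pregnant replicate 1 and slide 2 held non-pregnant replicate 2, the sows with the extreme values.

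Against the mean of the other 9 genes, r over 8 arrays was 0.85 for IFIH1, 0.82 for CXCL10, DHX58 and DDX58, 0.78 for RSAD2, 0.57 for OAS2, 0.54 for USP18, 0.44 for OASL, 0.41 for MX2 and 0.21 for BST2. The sensors, CXCL10 and RSAD2 thus lay closest to the mean of the others and BST2 furthest from it. The mean was not scaled by gene. CXCL10, with a range of 5.88 on the log2 scale against 2.66 or less for the others, weighs most in it. For the other genes the ranking is therefore in large part a likeness to CXCL10.

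Outside the group, 10 of 1807 other named genes were most like the mean pattern, as ranked by Pearson r over the 8 arrays. EIF2AK2, the gene of the RNA-activated kinase PKR that stops translation, was closest at r = 0.985, with 2.49 in non-pregnant replicate 1, a low of 0.63 in non-pregnant replicate 2 and 1.33 to 2.12 elsewhere. The platelet nucleotide receptor P2RY12, which is also on the platelet list, followed at 0.960. TNFSF10, a death ligand, had r = 0.925, the potassium channel gene KCNJ2 0.924 and IFIT3, which binds viral RNA, 0.923. Complement factor B (CFB) was at 0.896 and the chemokine receptor-like gene CCRL2 at 0.894. The list of other interferon-stimulated genes holds 5 of the 10, EIF2AK2, TNFSF10 and IFIT3 among them. In all, 9 were highest in non-pregnant replicate 1 and all 10 were lowest in non-pregnant replicate 2, as the choice by r with a pattern that has these extremes favours. Over the 1807 genes the median r was 0.092 and 13.2% had r above 0.5.

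Of 64 other interferon-stimulated genes listed, 20 were measured. Probes of CXCL9, CXCL11 and SIGLEC1 were well above background on 0 arrays and those of CCL2 on at most 3, so these were left out. The median r of the 20 with the pattern was 0.79, and 17 of the 20 had r above 0.5. Non-pregnant replicate 1 was highest for 11 of the 20 and non-pregnant replicate 2 lowest for 14, where these shares were 20.8% and 8.08% over the 1807 genes. The SD was larger in non-pregnant sows for 18 of the 20 at the brightest probe, where 33.9% of all probes, with or without a gene name, showed this. This count was not repeated without non-pregnant replicate 1. The guanylate-binding protein GBP2 stood at 5.20 in the first of these sows and 2.73 in the second, with 3.13 to 3.74 on the other arrays, and the chemokine CCL8 at 3.64 and -0.34, with 1.36 to 2.74 on the others. These genes, and MX1, ISG15 and IFNG, were picked after their values were seen. MX1, the closest relative of MX2, stood at 5.79 in non-pregnant replicate 1 and 4.28 to 5.12 on the other arrays, and ISG15, the protein modifier that USP18 removes, at 6.94 and 4.43 to 6.63. Interferon gamma itself (IFNG) was at -2.42 in the sow with high antiviral genes and at -1.73, its highest value, in the sow with low ones, with r = -0.28 to the pattern. The other listed interferons gave no values: the IFNB1 probe was well above background on 0 arrays, and IFN-DELTA and IFNW1 had 0 probes under these symbols.

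Between the groups, 0 of these 20 genes passed the test in either direction, with 13 log2 fold changes above 0, 7 below and a median of 0.055, where the median of all named genes was -0.036. STAT2, IRF7, TRIM21 and LGALS9 were among the 5 with the smallest unadjusted p values. IRF7, which amplifies interferon production, stood at 7.50 and 6.45 in pregnant replicates 2 and 3 and at 4.30 to 5.57 elsewhere, and did not follow the pattern (r = -0.10). STAT2, TRIM21 and LGALS9 had log2 fold changes of 0.33, 0.16 and 0.17 at their brightest probes, which stand for each gene of these lists. The other 4 probes of STAT2 ran from -0.48 to 0.24.

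A list of RNA sensing genes and adaptors, Toll-like receptors included, gave 15 measured of 30 listed, of which 0 passed the test in either direction. Their log2 fold changes were above 0 for 10 and below for 5, with a median of 0.075. Their median r with the pattern was 0.28. EIF2AK2 and ISG15 are on this list and on that of other interferon-stimulated genes. MAVS, the mitochondrial adaptor on which IFIH1 and DDX58 converge, was at 1.62 in pregnant replicate 2 and -2.01 to -0.13 on the other 7 arrays, with r = -0.39 to the pattern. The ubiquitin ligase TRAF6 had the smallest unadjusted p of this list (limma p = 0.0432, adjusted p = 1.00), with a log2 fold change of 1.21, and r = 0.020 to the pattern. MYD88 and FADD had log2 fold changes of 0.43 and -0.20. RELA had 0.51, with pregnant replicate 2 at 1.00 and the other arrays at -1.65 to -0.47, and its second probe gave -0.10.

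Among interferon receptor and signalling genes, 13 of 21 were measured and 0 passed the test in either direction. Log2 fold changes were above 0 for 10 and below for 3, with a median of 0.093, and the median r with the pattern was 0.64. IFNAR1, a chain of the type I receptor, was at 2.26, 1.31, 1.73 and 1.66 in pregnant and 1.57, 1.02, 1.16 and 1.25 in non-pregnant sows, a log2 fold change of 0.49 (limma adjusted p = 1.00). IL10RB and IFNGR1 followed by unadjusted p at the brightest probe, at 0.45 and 0.32. The 3 dimmer probes of IFNGR1 gave 0.49, 0.50 and 0.61, and the second probe of IFNAR1 gave 0.23.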

How the data were processed

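Blood RNA of 4 pregnant and 4 non-pregnant sows was measured on 1 single-colour Agilent array each. The authors deposited scanner files that, per the file headers, came from version 10.7.3.1 of Feature Extraction (10.7 per the submitters' processing notes), whose processed signal is a linear intensity with background subtracted and no scaling between arrays. The deposited table of log2 values has equal quartiles on all arrays and follows each array's own scanner signal (r of 0.99895 or higher); its normalization and centring are not given in the sources used here, and it served as an alternative. Control and outlier spots were left out, spots of a probe were averaged as log2, and each array's 75th percentile was subtracted. Of 43603 probes 215 were dropped for outliers, and 26480 were well above background on all 4 arrays of a group. Symbols came from a RefSeq table of Sscrofa11.1 (5436 of 5748 probes with a RefSeq accession matched), used for names only. Groups were compared with limma 3.58.1 in R 4.3.3, two-sided, adjusted by Benjamini-Hochberg over 26480 probes at a threshold of 0.05. In values simulated for these 26480 probes, 2.99% of 2-fold, 56.7% of 4-fold and 84.8% of 8-fold changes were recovered. Correlations were tested by exact permutation. The rest used Python 3.11.15, pandas 2.3.3, numpy 2.4.6 and matplotlib 3.10.9.

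Named are all probes of the 10 genes, up to 5 genes of smallest unadjusted p per further list, and the 10 genes most like the mean pattern. Members and lists were chosen with earlier results of these data known. Probe, promoter and protein sequences were not used here, so a planned motif count was not run. Some genes that the rule would name are not reported here. Alternatives were quantile and median scaling, normexp (offset 50) on the median spot and background intensity the authors deposited, other filters, the deposited table, gene-level values, weights per array, blocking on slide or on replicate number, separate slides, a robust variance with trend, and each array left out. The number of arrays limits the precision: 95% intervals reached 0.57 to 2.30 (median 0.89) on the log2 scale to either side for the 19 probes.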

Additional observations from a re-analysis of the deposited data

Results flagged for a closer look

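Of 38 groups of 4 values (19 probes in 2 groups), 2 held a sow far from the other 3 by Dixon's criterion at 95%, and chance flags about 1 in 20 groups. Both were pregnant replicate 4 on the low side. At the second OAS2 probe it stood at 0.99 against 2.01 to 2.10 in the other pregnant sows, and at the DHX58 probe at 0.56 against 0.91 to 0.98.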

How the results depend on the processing

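No setting called any of the 19 probes (smallest limma adjusted p = 0.333 over 400 refitted values), and the count over all probes stayed at 0 under each, with 605 probes at an unadjusted p under 0.05 in the reported fit and 438 (without non-pregnant replicate 4) to 2162 (array weights, whose estimation stopped before convergence) elsewhere. With so few calls these counts say little about stability. The slide interaction counted 0 probes and, with an array left out, 0 to 2 (2 without non-pregnant replicate 2). The sign of the log2 fold change was kept under every setting at 7 of the 19 probes: the second RSAD2 probe, OAS2 probes 1, 2 and 5, OASL and both USP18 probes. Its size was not: normexp took the dimmer USP18 probe from 0.92 to 0.13 and OASL from 0.67 to 0.21. It took OAS2 probe 5 from 0.41 to 0.12 and the second RSAD2 probe from -0.48 to -0.14. The brighter USP18 probe went from 0.93 to 0.71. The offset of 50 that normexp adds lowers folds most at dim probes by construction. How much of these drops it makes up was not tested, so the drops cannot tell whether the group differences are stable. The sign turned at the other 12. Within slide 1 alone it was -1.22 and -1.19 for the CXCL10 probes, -0.18 and -0.32 for IFIH1 and -0.57 and -0.53 for DDX58, and within slide 2 alone 0.092 for MX2, 0.23 for the first RSAD2 probe, -0.0020 for BST2 and -0.26 for OAS2 probe 3. Array weights gave 0.065 for MX2 and 0.095 for the first RSAD2 probe, and normexp -0.086 and -0.081 for the CXCL10 probes; the cause was not tested. With an array left out the ranges were -0.34 to 0.057 for MX2, -0.61 to 0.27 for the first RSAD2 probe, -0.037 to 0.39 for BST2, -0.12 to 0.40 and -0.050 to 0.51 for OAS2 probes 3 and 4, -0.89 to 1.07 and -0.83 to 1.13 for CXCL10, -0.14 to 0.40 for the second IFIH1 probe, -0.18 to 0.60 and -0.073 to 0.57 for DDX58 and -0.14 to 0.19 for DHX58. The median r of the members was 0.31 to 0.55 over the settings that kept all arrays or 1 slide, and 0.20 (without non-pregnant replicate 2) to 0.53 with an array left out. The replicate numbers were not treated as pairs, since the labels do not say what they mark. Deviations of same-numbered sows correlated at 0.22, 0.48, 0.43 and -0.12. These values cannot decide the matter, since 1 pair had no kinship and same-numbered sows shared a slide. Whether the numbers mark the half-sib pairs is not known. With the replicate block 0 probes were called, 795 had an unadjusted p under 0.05, and the median r of the members was 0.31. Leaving out arrays to recount the larger spread of non-pregnant sows was chosen after seeing the data and gave 9 to 16 of the 19 probes, where 12 were counted with all arrays.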
